A study of Mus musculus with 2 samples.

Results

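The genes described here are 34 members of the sterol and fatty acid synthesis pathways, out of 27998 genes in each of the 2 deposited matrices. They were chosen by gene symbol, and all 34 were found in both matrices. They comprise 19 enzymes of the sterol branch, 5 regulators and sterol carriers, and 10 enzymes of the fatty acid branch. They were measured by single-cell RNA sequencing of islets, the endocrine clusters of the pancreas, from C57BL/6 mice at postnatal day 70. The transgenic library (TG) came from mice carrying a miR-503 transgene specific to beta cells, and the wild type library (WT) came from mice of the same strain and age with no such transgene named. The sources used here do not give the promoter that drives the transgene, the sex of the mice or the number of mice pooled. As each group is 1 library, differences between TG and WT have no replicate check and were not tested, so the 95% intervals below cover counting error only.

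Cells build cholesterol from acetyl-CoA through the mevalonate pathway, which also supplies the isoprenoid groups attached to many proteins, and build fatty acids from the same precursor. When sterols in the endoplasmic reticulum run low, SCAP carries the SREBP transcription factors to the Golgi, where they are cut and released to the nucleus. SREBP-2, the product of Srebf2, mainly drives sterol synthesis genes and SREBP-1, the product of Srebf1, mainly drives fatty acid synthesis genes, while INSIG proteins hold SCAP back when sterols are plentiful. In pancreatic beta cells, cholesterol is a component of the insulin granule membrane, and both too much and too little of it are known to impair insulin secretion.

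The promoters of the members are shown first, and any link between their letters and the levels of the genes was not tested. RefSeq promoter windows on GRCm38.p6, of 250 bases before and 50 bases after the start, were matched for 27 of the 34 members. The 4 sterol enzymes with the lowest TG to WT ratios are printed, together with Fasn, the fatty acid synthase, which was not picked for its ratio. Of the matched fatty acid genes, Fasn holds the most CCAAT matches. Acss2, at -0.58 like Idi1, and Acly hold 1 CCAAT each and are not printed. Me1, a fatty acid gene whose ratio was lower than those of Idi1 and Cyp51, is also not printed. It has a pair of windows, 1 with a CCAAT and the other with no match to any motif searched. Capitals mark matches on either strand to the sterol regulatory element TCACNCCAC or to the NF-Y box CCAAT, which reads ATTGG on the opposite strand. The Hmgcs1 window lies at chr13:119690101-119690400, plus strand, the Idi1 window at chr13:8885356-8885655, plus strand, the Cyp51 window at chr5:4104648-4104947, minus strand, the Hsd17b7 window at chr1:169969156-169969455, minus strand, and the Fasn window at chr11:120824498-120824797, minus strand.
Hmgcs1: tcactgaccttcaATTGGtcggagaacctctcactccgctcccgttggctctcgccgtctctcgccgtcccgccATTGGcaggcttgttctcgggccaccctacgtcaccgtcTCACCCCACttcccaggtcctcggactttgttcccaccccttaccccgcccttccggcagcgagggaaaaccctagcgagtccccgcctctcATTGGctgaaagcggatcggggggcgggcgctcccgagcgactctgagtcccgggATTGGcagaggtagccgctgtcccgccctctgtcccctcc
Idi1: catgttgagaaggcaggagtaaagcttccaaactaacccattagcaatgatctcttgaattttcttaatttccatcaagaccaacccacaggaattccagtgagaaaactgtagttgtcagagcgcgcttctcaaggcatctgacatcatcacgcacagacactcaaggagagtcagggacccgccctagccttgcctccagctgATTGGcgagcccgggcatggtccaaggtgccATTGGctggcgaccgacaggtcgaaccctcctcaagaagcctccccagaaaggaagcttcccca
Cyp51: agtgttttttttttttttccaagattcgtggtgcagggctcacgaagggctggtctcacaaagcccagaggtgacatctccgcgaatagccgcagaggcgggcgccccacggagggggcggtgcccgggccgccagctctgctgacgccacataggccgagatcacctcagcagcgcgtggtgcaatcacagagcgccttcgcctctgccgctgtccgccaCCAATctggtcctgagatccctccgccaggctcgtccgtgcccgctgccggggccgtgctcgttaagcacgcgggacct
Hsd17b7: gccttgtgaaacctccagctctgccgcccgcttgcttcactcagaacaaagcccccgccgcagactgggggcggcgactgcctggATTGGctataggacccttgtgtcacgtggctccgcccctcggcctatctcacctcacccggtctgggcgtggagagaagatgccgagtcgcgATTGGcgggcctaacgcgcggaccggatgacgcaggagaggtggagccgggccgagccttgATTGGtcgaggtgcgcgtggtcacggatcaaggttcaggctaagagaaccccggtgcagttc
Fasn: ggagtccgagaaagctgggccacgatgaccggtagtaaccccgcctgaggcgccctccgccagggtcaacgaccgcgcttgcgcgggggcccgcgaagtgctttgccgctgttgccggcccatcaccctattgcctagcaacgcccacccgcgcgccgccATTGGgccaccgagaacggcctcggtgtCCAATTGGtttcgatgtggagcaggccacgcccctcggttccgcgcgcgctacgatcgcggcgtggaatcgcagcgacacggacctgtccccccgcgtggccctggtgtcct

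NF-Y is a promoter-binding factor known to act beside SREBPs, and its CCAAT box was the commonest of the motifs searched. At least 1 CCAAT lay in the windows of 22 of the 27 matched members (81.5%), against 41.1% of 27025 genes with a RefSeq promoter. All 9 matched genes of the squalene and later steps held one, as did 6 of 7 matched mevalonate genes, 3 of 4 regulators and 4 of 7 fatty acid genes. In the sequences above, Hmgcs1 holds 4 matches, Hsd17b7 and Fasn 3 each, Idi1 2 and Cyp51 1, and the Fasn matches at -62 and -59 from the start overlap in CCAATTGG. The TCACNCCAC letters were found in 1 of the 27 members, Hmgcs1, where they begin 137 bases before the start, against 1.44% of genes. The E-box CACGTG, a second kind of SREBP-bound sequence, was present in 5 members, against 8.09% of genes. A match describes letters in a window and not a site shown to be bound. CCAAT matches were not confined to genes low in TG beta cells. Mvk held 5, Nsdhl 4 and Ebp 2, at log2 ratios of TG over WT of 0.19, 0.04 and 0.22. The matched windows of Acaca (-0.49) and Elovl6 (-0.38) held 0.

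The TG matrix held 4158 barcodes with 109243270 UMIs (unique molecular identifiers, each counting 1 captured transcript) and the WT matrix 4540 barcodes with 104677537 UMIs. After filters and removal of likely doublets 3978 TG and 4340 WT cells remained, with medians of 24583 and 21495 UMIs per cell, and 25 barcode sequences were shared between libraries. Hormone shares of UMIs gave 2625 TG and 3194 WT beta cells (insulin, at least 25%), 583 and 399 alpha cells (glucagon, at least 3%), 99 and 76 delta cells (somatostatin, at least 2%) and 103 and 117 gamma cells (pancreatic polypeptide, at least 3%). A further 356 TG and 231 WT cells passed more than 1 threshold and were left out. Among them, 244 TG and 120 WT cells passed the somatostatin threshold, and 277 TG and 182 WT cells the pancreatic polypeptide threshold. Those are more cells than were kept as delta or gamma cells in either library. Outside the hormones that set the classes, the markers highest in their own class in both libraries were 6 of 6 for beta cells, 5 of 6 for alpha cells, 3 of 5 for delta cells and 1 of 4 for gamma cells. The exceptions in delta and gamma cells were Lepr, Pcsk1, Etv1, Fxyd6 and Abcc9. Lepr was at 0 in delta cells and Abcc9 at 0 in gamma cells, so the delta class rests mainly, and the gamma class almost wholly, on its hormone. The libraries differ in ways that touch the results: insulin took a median of 60.5% of UMIs in TG beta cells and 50.4% in WT beta cells, and mitochondrial genes 2.03% and 3.23%. Cells with Xist and no Y-linked UMI made up 7.79% of TG cells and 0.0461% of WT cells. Levels below are summed UMIs per 1000000 after scaling the class sums by trimmed mean of M values (TMM), written as CPM, and they count transcript ends, so no level is corrected for gene length.

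In beta cells both branches were lower in TG, by a similar factor. Summed over the 19 sterol branch genes the level was 588 CPM in TG and 731 CPM in WT, a log2 ratio of -0.31 (-0.34 to -0.29). Summed over the 10 fatty acid genes it was 386 CPM in TG and 485 CPM in WT, a log2 ratio of -0.33 (-0.36 to -0.30), and the 5 regulators and carriers together differed by -0.14 (-0.17 to -0.10). Of the 33 members with at least 50 UMIs, 14 were at least 1.2-fold lower in TG, against 17.3% of 12905 genes, and 1, Scd1, was at least 1.2-fold higher, against 16.7%. By branch, 7 of 9 fatty acid genes, 5 of 19 sterol genes and 2 of 5 regulators and carriers were lower past that fold. The median log2 ratio was -0.38 over the 9 fatty acid genes and -0.09 over the 19 sterol genes, against -0.02 over all genes. The sterol sum rested in part on 1 abundant gene, and without Hmgcs1 its ratio was -0.20. Part of the gap accompanies the insulin share: averaged over bins of equal insulin share, the sterol ratio was -0.11 and the fatty acid ratio -0.19. Without the highest bin, which held 18 WT cells, the sterol ratio averaged -0.20 and the fatty acid ratio again -0.19. Summed acinar markers, all 5 of them detected in each library, were also higher in TG beta cells, at 80.9 CPM against 25.7 CPM in WT. The same held in alpha cells (77.9 CPM in TG, 42.5 CPM in WT), delta cells (56.0 and 8.67 CPM) and gamma cells (90.9 and 8.49 CPM), and their part in the results for any class was not tested.

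**Figure D1:**
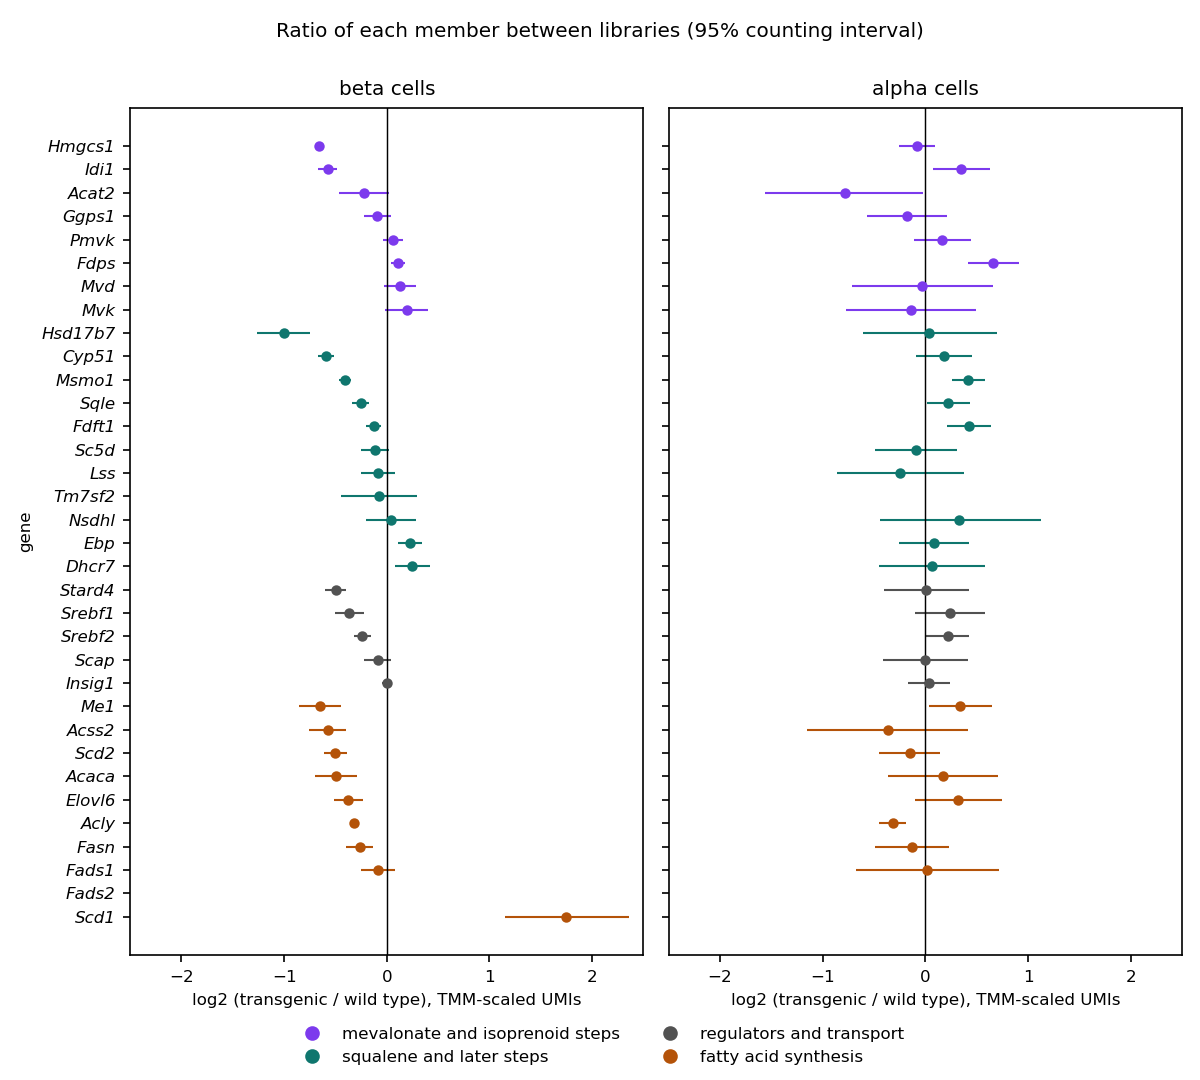
Log2 ratio of TG over WT for each member with at least 50 UMIs in beta cells (left) and alpha cells (right), with 95% counting intervals and colours for the groups of genes. In beta cells Hsd17b7 (-1.002), Hmgcs1 (-0.66), Me1 (-0.65) and most fatty acid genes lie left of 0 and Scd1 (1.74) lies far right, while in alpha cells Fdps (0.66), Fdft1 (0.42) and Msmo1 (0.42) lie right of 0.

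Among the mevalonate and isoprenoid steps, the difference lay in 2 of the 8 enzymes. Hmgcs1, the cytosolic HMG-CoA synthase that commits acetyl units to the pathway, had 6502 UMIs in TG beta cells and 12313 UMIs in WT beta cells, or 131 against 207 CPM, a log2 ratio of -0.66 (-0.70 to -0.61). Hmgcs1 alone made up 22.3% of sterol branch UMIs in TG beta cells and 28.3% in WT beta cells. Idi1, the isomerase that turns isopentenyl into dimethylallyl diphosphate, stood at 30.2 CPM in TG and 45.0 CPM in WT, a log2 ratio of -0.58 (-0.67 to -0.49). The kinases and the decarboxylase between them did not show this difference: Mvk, Pmvk and Mvd had log2 ratios of 0.19 (-0.02 to 0.41), 0.06 (-0.04 to 0.16) and 0.13 (-0.03 to 0.28), each with an interval that includes 0. Fdps, which makes farnesyl diphosphate, was slightly higher at 65.8 CPM in TG against 60.9 CPM in WT (0.11, 0.04 to 0.18). This did not hold at equal insulin share: averaged over the 5 bins the Fdps ratio was -0.13, and it was below 0 in 3 of them. Acat2, the cytosolic thiolase at the head of the pathway, had a log2 ratio of -0.22 (-0.47 to 0.02), and Ggps1, which makes geranylgeranyl diphosphate, one of -0.09 (-0.22 to 0.04).

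Of the 11 enzymes of the squalene and later steps, 5 had intervals under 0, 4 had intervals that include 0 and 2 had intervals above 0. The share of all genes with intervals off 0 was not counted. Past 1.2-fold, 3 of the 11 were lower, against 17.3% of all genes, and 0 higher, against 16.7%. Cyp51, the lanosterol 14-alpha demethylase, stood at 38.9 CPM in TG beta cells and 58.7 CPM in WT beta cells, a log2 ratio of -0.59 (-0.67 to -0.51). Msmo1, the C4-methyl oxidase that follows, had 81.2 CPM in TG and 108 CPM in WT (-0.41, -0.47 to -0.35). Hsd17b7, the 3-ketosteroid reductase of the same demethylation, had 175 UMIs in TG and 421 UMIs in WT, 3.53 against 7.07 CPM, the lowest ratio of the members with the minimum of UMIs at -1.002 (-1.26 to -0.75). Sqle, the squalene epoxidase, was lower by less (-0.25, -0.34 to -0.17), and Fdft1, the squalene synthase, by less again (-0.13, -0.20 to -0.05). At equal insulin share Fdft1 was lower in TG in only 1 of the 5 bins. Lss, Tm7sf2, Nsdhl and Sc5d, at log2 ratios between -0.12 and 0.04, had intervals that include 0. Both genes with intervals above 0 act late in the pathway: Ebp, the sterol isomerase, stood at 24.1 CPM in TG and 20.6 CPM in WT (0.22, 0.11 to 0.34) and Dhcr7, the terminal reductase, at 11.8 and 9.93 CPM (0.25, 0.08 to 0.42). At equal insulin share the Ebp ratio averaged -0.06 over the 5 bins and was below 0 in 3 of them. That of Dhcr7 was below 0 in 1 bin. With UMIs scaled by library totals, which count the insulin transcripts, every beta cell ratio shifts by -0.31, and those of Fdps, Ebp and Dhcr7 become negative.

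The regulators did not move as 1 block. Insig1, whose product retains SCAP and which is itself a strongly SREBP-driven gene, had 137 CPM in both TG and WT beta cells, a log2 ratio of 0.00 (-0.05 to 0.05). Srebf1 stood at 14.1 CPM in TG and 18.2 CPM in WT (-0.37, -0.51 to -0.23) and Srebf2 at 40.9 and 48.3 CPM (-0.24, -0.32 to -0.16). Stard4, a cytosolic sterol carrier, was lower at 25.8 CPM in TG against 36.4 CPM in WT (-0.50, -0.60 to -0.40), and Scap had an interval that includes 0 (-0.09, -0.22 to 0.04).

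In the fatty acid branch the lower level in TG beta cells, taken as a whole class, ran through nearly every step. At equal insulin share it did not hold for each gene. Scd2 was lower in TG in 2 of the 5 bins, with a ratio of 0.30 (0.04 to 0.55) in the 40 to 50% bin. Acly, which cleaves citrate to supply cytosolic acetyl-CoA, had 14931 UMIs in TG and 22361 UMIs in WT, 301 against 376 CPM (-0.32, -0.35 to -0.29), and made up 78.1% of the branch's UMIs in TG and 77.4% in WT. Acss2, which makes acetyl-CoA from acetate, had 8.05 CPM in TG and 12.0 CPM in WT (-0.58, -0.76 to -0.40). Acaca, the acetyl-CoA carboxylase that makes malonyl-CoA, had 6.42 CPM in TG and 9.04 CPM in WT (-0.49, -0.70 to -0.29). Fasn, which builds palmitate, differed by less, at 16.6 CPM in TG and 19.98 CPM in WT (-0.26, -0.39 to -0.13). Me1, the cytosolic malic enzyme that supplies NADPH, stood at 6.05 CPM in TG and 9.51 CPM in WT (-0.65, -0.86 to -0.45). Elongation by Elovl6 (-0.38, -0.52 to -0.23) and desaturation by Scd2 (-0.50, -0.61 to -0.39) followed the same direction, while Fads1, the delta-5 desaturase, differed by -0.08 (-0.25 to 0.08).

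Scd1, the other stearoyl-CoA desaturase, was the exception and was a rare transcript in these cells. It had 92 UMIs in TG beta cells and 33 UMIs in WT beta cells, 1.86 against 0.555 CPM, a log2 ratio of 1.74 (1.16 to 2.36). In alpha cells it had 27 UMIs in TG and 5 UMIs in WT (2.06, 0.67 to 3.80), so the higher count was seen in 2 classes. Scd2, its paralog, had 1025 UMIs in TG beta cells and 1742 UMIs in WT beta cells, and the counting of reads shared by the paralogs is not stated. Fads2, the delta-6 desaturase, stayed under the minimum with 20 UMIs in TG and 8 UMIs in WT beta cells. In delta cells Scd1, Fads2 and Tm7sf2 had no UMI in either library, where a count of 0 allows up to 1.91 CPM in TG and 2.37 CPM in WT.

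In alpha cells the sterol sum was higher in TG and the fatty acid sum slightly lower. The sterol sum was 478 CPM in TG and 411 CPM in WT, a log2 ratio of 0.22 (0.15 to 0.29), and the fatty acid sum 196 CPM in TG and 215 CPM in WT (-0.13, -0.23 to -0.03). Member by member the sterol difference was smaller, with a median log2 ratio of 0.07 over 18 genes, of which 11 were above 0, 5 of them past 1.2-fold, and 7 below 0. The fatty acid ratio was -0.06 (-0.16 to 0.03) with hormone thresholds doubled and -0.06 as a mean over cells. The sterol ratio of beta cells was lower than that of alpha cells by 0.53 on the log2 scale (-0.60 to -0.46), a difference that was not tested. The alpha cell sterol ratio was 0.14 with cells past more than 1 hormone threshold kept, 0.14 among cells of 15000 to 35000 UMIs and 0.13 among cells with a Y-linked and no Xist UMI. Fdps stood at 45.8 CPM in TG alpha cells and 28.9 CPM in WT alpha cells (0.66, 0.42 to 0.91), Fdft1 at 54.8 and 40.9 CPM (0.42, 0.21 to 0.64), and Msmo1 at 92.8 and 69.5 CPM (0.42, 0.26 to 0.58). Idi1 had 31.6 CPM in TG and 24.8 CPM in WT (0.35, 0.08 to 0.63), whereas Hmgcs1 differed by -0.08 (-0.26 to 0.09). Of 31 members with at least 50 UMIs, 7 were at least 1.2-fold higher in TG, near the 18.0% of all genes, and 3 were lower, against 16.0%. Acly was the member that set the fatty acid sum, at 101 CPM in TG and 126 CPM in WT (-0.32, -0.45 to -0.19), and without it the sum of the branch was 0.10 higher in TG.

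In delta and gamma cells fewer members could be counted. Delta cells had 498 sterol branch UMIs in TG and 425 in WT, 317 against 335 CPM, and the ratio of -0.08 (-0.27 to 0.11) did not differ from 0 beyond counting error. Of 12 members with the minimum there, 4 were lower and 4 higher past 1.2-fold, against 17.9% and 20.8% of genes. Gamma cells resembled beta cells in direction: the sterol sum was 384 CPM in TG and 527 CPM in WT (-0.46, -0.59 to -0.33) and the fatty acid sum 206 and 313 CPM (-0.61, -0.78 to -0.43). Of 19 members with the minimum in gamma cells 9 were lower, against 20.5% of genes, and 0 were higher, against 20.6%. Idi1 had 35 UMIs in TG and 97 UMIs in WT gamma cells (-1.01, -1.61 to -0.44), Acly 219 and 576 UMIs (-0.93, -1.16 to -0.71), Hmgcs1 129 and 304 UMIs (-0.78, -1.08 to -0.47) and Insig1 90 and 209 UMIs (-0.75, -1.13 to -0.39). With cells past more than 1 hormone threshold kept, the gamma sterol ratio was -0.21. Pancreatic polypeptide took a median of 40.3% of UMIs in TG gamma cells and 22.0% in WT gamma cells, and its part in the result was not tested. Beta cell markers summed to 64981 CPM in TG and 90044 CPM in WT gamma cells, and to 35303 and 41983 CPM in alpha cells. Nearly all of each sum was Ins1, Ins2 and Iapp, and Mafa was at 0.

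**Figure D2:**
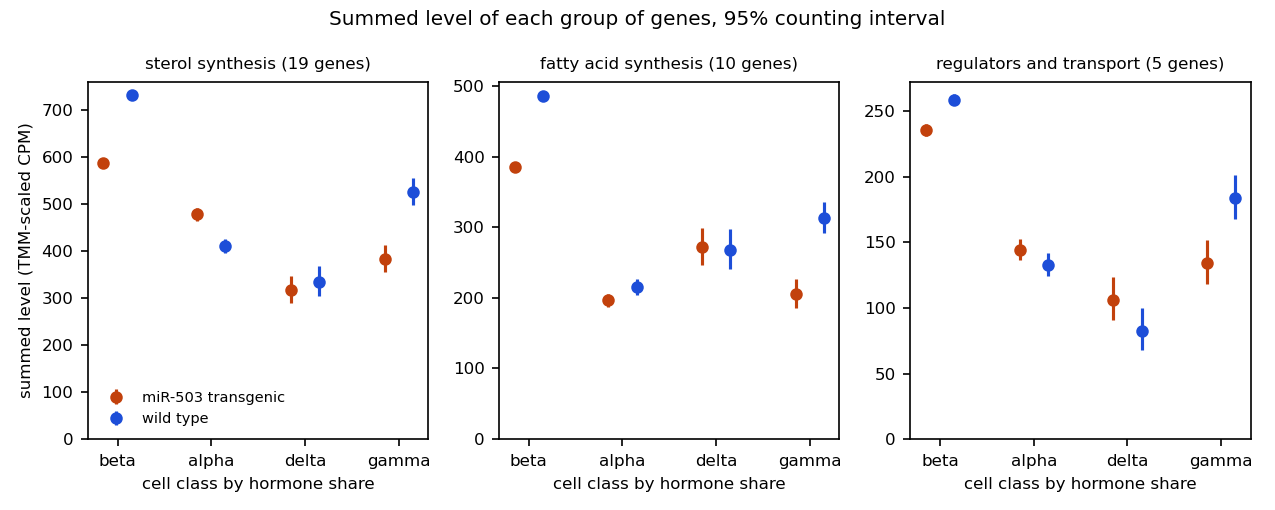
Summed level (TMM-scaled CPM) of the sterol branch, the fatty acid branch and the regulators and carriers in each class of cells, TG left of WT, with 95% counting intervals. Beta cells hold the highest sums in both libraries, and the TG point lies under the WT point for the sterol branch in beta cells (588 against 731 CPM) and above it in alpha cells (478 against 411 CPM).

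Set against beta cells of the same library, the other endocrine cells had lower sums of both branches. Alpha cells had a log2 sterol ratio over beta cells of -0.30 (-0.34 to -0.25) in TG and -0.83 (-0.89 to -0.78) in WT, and a fatty acid ratio of -0.97 (-1.04 to -0.91) in TG and -1.17 (-1.25 to -1.10) in WT. Delta cells had sterol ratios of -0.89 in TG and -1.13 in WT, and gamma cells -0.62 in TG and -0.47 in WT. The order of the sterol sums was beta, alpha, gamma, delta in TG and beta, gamma, alpha, delta in WT. The counting intervals of neighbours do not overlap, but they leave out the spread between cells. In beta cells the variance of sterol branch UMIs per cell was 3.87 times the mean in TG and 4.11 times in WT. These signs hold with UMIs outside hormones and with DESeq2 size factors as the scale, but with library totals several reverse: the sterol sum of TG alpha cells is then 0.50 above that of TG beta cells and that of TG delta cells 0.40 above it. On that scale each member's ratio to beta cells shifts by the same amount as the sum of its class.

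A few members carried the lower level outside beta cells. At least 1.5-fold lower than in beta cells in both libraries were 8 of 31 members in alpha cells, against 14.2% of genes, 5 of 12 in delta cells, against 10.8%, and 7 of 19 in gamma cells, against 9.84%. At least 1.5-fold higher were 1 of 31 in alpha cells, against 11.5%, 0 of 12 in delta cells, against 10.9%, and 1 of 19 in gamma cells, against 8.02%. Hmgcs1, Insig1 and Acly were among them in all 3 classes. Insig1 stood at 48.8 CPM in TG alpha cells and 47.6 CPM in WT alpha cells, against 137 CPM in the beta cells of either library. Acly had the same log2 ratio of alpha over beta cells in both libraries, -1.58. Fads1, Acss2, Mvd and Lss were also lower in alpha cells, and Srebf2, at 51.3 CPM in TG and 44.1 CPM in WT alpha cells, was not. Me1 was the gene higher in alpha and in gamma cells, with 25.3 CPM in TG alpha cells and 20.02 CPM in WT alpha cells against 6.05 and 9.51 CPM in beta cells, and 23.4 and 27.0 CPM in gamma cells.

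Within beta cells, levels were next set against the share of UMIs taken by Ins1 and Ins2, in 5 bins and per 1000000 UMIs outside the islet hormones. Sterol branch levels were lower in cells with a larger insulin share in both libraries: over bins of 25 to 40, 40 to 50, 50 to 60, 60 to 70 and at least 70% they were 1021, 969, 927, 855 and 720 in TG, and 1217, 1147, 1102, 881 and 619 in WT. The highest bin held 136 TG cells and 18 WT cells, so the 60 to 70% bin, with 1246 TG and 363 WT cells, is set against the lowest, with 60 and 521. Between these the sterol sum differed by -0.25 (-0.35 to -0.16) in TG and -0.47 (-0.52 to -0.41) in WT, and with the highest bin in its place by -0.50 and -0.98. Fatty acid levels differed by -0.48 (-0.59 to -0.36) in TG and -0.44 (-0.51 to -0.38) in WT. Many genes were lower in these cells: the median over all genes with at least 500 UMIs was -0.12 in TG and -0.25 in WT. Past 1.2-fold, 12 of 24 members were lower in TG, against 37.6% of genes, and 4 higher, against 22.6%, while in WT 19 of 27 were lower, against 49.3%, and 2 higher, against 18.2%.

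Hmgcs1, Stard4 and Srebf2 were lower in the beta cells richer in insulin, and Fdps and Ebp were higher there, in both libraries. Hmgcs1 stood at 267, 263, 231, 168 and 72.3 over the bins in TG, and at 381, 344, 302, 173 and 113 in WT. Its log2 difference between the 60 to 70% and 25 to 40% bins was -0.67 (-0.86 to -0.47) in TG and -1.14 (-1.26 to -1.02) in WT. For Stard4 that difference was -0.55 (-0.995 to -0.07) in TG and -1.11 (-1.38 to -0.84) in WT, and for Srebf2 -0.48 (-0.83 to -0.12) in TG and -0.98 (-1.21 to -0.76) in WT. Fdps was higher in the cells richer in insulin, by 0.91 (0.52 to 1.34) in TG and 0.77 (0.59 to 0.95) in WT, and so was Ebp, by 1.11 (0.40 to 1.93) in TG and 0.54 (0.22 to 0.86) in WT. Insig1 varied less, by 0.05 (-0.17 to 0.27) in TG and -0.25 (-0.37 to -0.13) in WT. Of the fatty acid genes, Scd2 differed by -1.28 (-1.69 to -0.84) in TG and -0.80 (-1.09 to -0.53) in WT, and Acaca by -0.55 (-1.40 to 0.43) in TG and -0.93 (-1.47 to -0.41) in WT.

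Compared at the same insulin share, TG beta cells were lower than WT beta cells in both branches up to a share of 60%, and in the fatty acid branch up to 70%. The sterol ratio of TG over WT was -0.25, -0.24 and -0.25 in the first 3 bins, -0.04 (-0.09 to 0.01) in the 60 to 70% bin and 0.22 (-0.09 to 0.54) in the highest. For the fatty acid branch it was -0.20, -0.10, -0.24 and -0.23 in the first 4 bins and -0.16 (-0.48 to 0.16) in the highest. Hmgcs1 differed by -0.51 (-0.71 to -0.32) in the lowest bin and by -0.04 (-0.16 to 0.08) in the 60 to 70% bin. On the same scale, mitochondrial UMIs over the bins were 65725, 62523, 57038, 52121 and 50967 in TG, and 76553, 69876, 64241, 58886 and 70163 in WT, lower in the 60 to 70% than in the lowest bin in both libraries. Immediate early genes, which mark recent stimulation or dissociation stress, stood at 2832, 4204, 5206, 5723 and 4540 in TG, and at 4489, 5326, 5726, 5374 and 2782 in WT. They were thus lower in TG than in WT in the first 3 bins and higher in the last 2, and the part of either set of genes in the result was not tested.

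**Figure D3:**
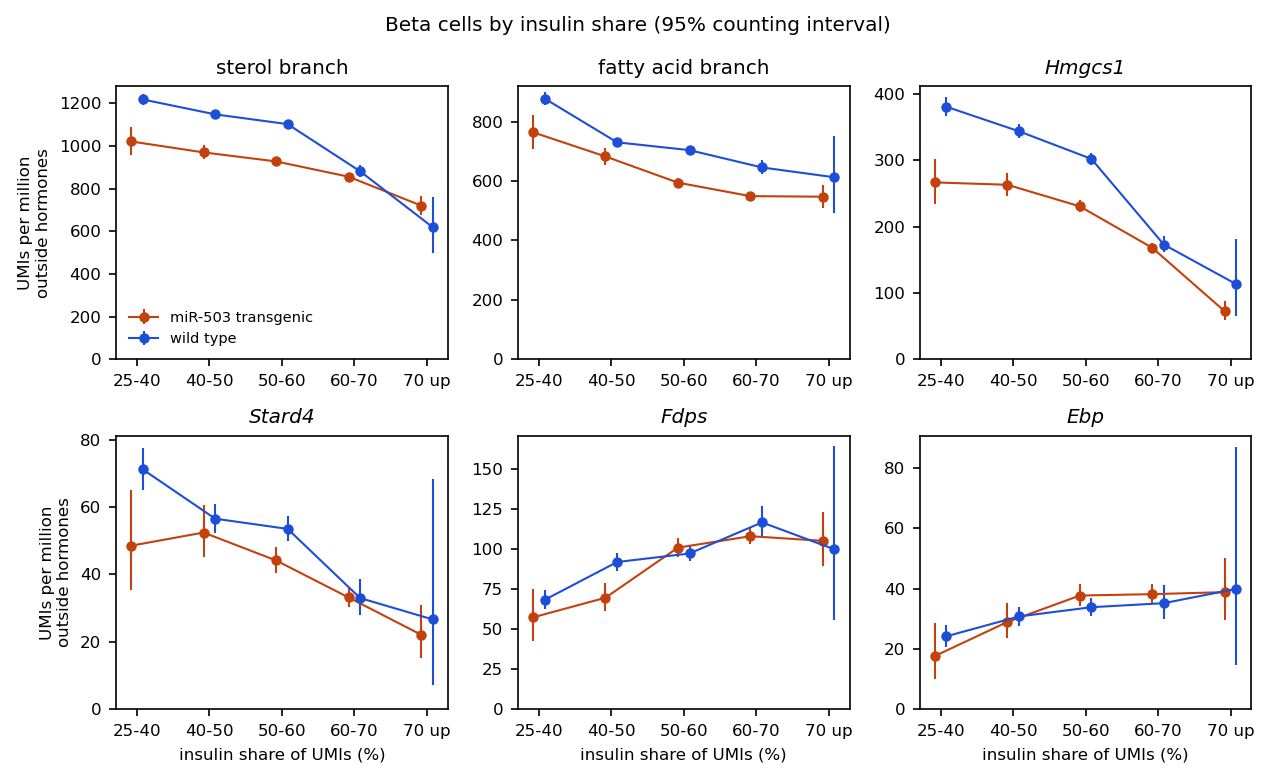
Levels per 1000000 UMIs outside the islet hormones in beta cells binned by insulin share of UMIs, TG and WT, with 95% counting intervals, for both branches and 4 genes. Sterol branch, fatty acid branch, Hmgcs1 and Stard4 levels are lower at larger insulin shares in both libraries, and Fdps and Ebp levels are higher.

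From cell to cell, beta cells rich in some sterol transcripts were rich in others. Each beta cell held a median of 10 sterol branch UMIs in TG and 12 in WT, or 8.29 and 10.6 per 10000 UMIs outside hormones. Cells of each library were ordered by this rate, and each gene was compared between the top and the bottom tercile, leaving the gene itself out of the ordering. Of 24 members with at least 500 UMIs in each library, 17 were at least 1.2-fold higher in the top tercile in TG, against 6.49% of 6869 genes, and 16 in WT, against 10.3%. Idi1 ranked first of all 6869 genes by the lower of its 2 values, with log2 differences of 1.02 (0.83 to 1.21) in TG and 0.996 (0.85 to 1.14) in WT. Cyp51 ranked second (0.84 in TG, 0.91 in WT), Msmo1 4th (0.82, 0.77), Stard4 5th (1.001, 0.73), Hmgcs1 6th (0.64, 0.68) and Scd2 8th (0.89, 0.57). Among the regulators Insig1 had 0.49 in TG and 0.63 in WT and Srebf2 0.46 and 0.56.

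The fatty acid genes divided in this respect. Scd2 and Fasn (0.54 in TG, 0.36 in WT) were richer in the cells with more sterol transcripts, Elovl6 less so (0.28, 0.27), and Acly hardly, at 0.08 (0.03 to 0.14) in TG and 0.16 (0.12 to 0.21) in WT. Across cells, the summed rates of the 2 branches had Spearman correlations of 0.095 over 2625 TG cells and 0.12 over 3194 WT cells, given as descriptions of sparse counts that share each cell's depth. Some sterol enzymes did not follow the others: Ebp had 0.02 (-0.19 to 0.22) in TG and 0.05 (-0.16 to 0.25) in WT, and Pmvk and Ggps1 had values between 0.05 and 0.14. Fdps had 0.51 (0.39 to 0.64) in TG and 0.11 (-0.01 to 0.22) in WT. The terciles also differed in insulin share, with medians of 59.4% in the top and 61.4% in the bottom tercile in TG and 49.1% and 52.6% in WT. Median mitochondrial shares were 2.16% in the top and 1.91% in the bottom tercile in TG, and 3.66% and 2.85% in WT. Median UMIs per cell were 27546 and 29814 in TG, and 22202 and 24117 in WT. The part of these differences was not tested.

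Of the 10 genes outside the members with the highest values in both libraries, 7 are named. Pdxk, the pyridoxal kinase, had 0.57 in TG and 0.56 in WT, Rsad2, an interferon-induced radical SAM enzyme, 0.55 and 0.58, and Klhl25, an adaptor of a ubiquitin ligase, 0.73 and 0.52. Slc15a4, a lysosomal histidine and peptide transporter, had 0.53 in TG and 0.51 in WT, Anks4b 0.49 and 0.52, Ppargc1a, a transcriptional coactivator, 0.61 and 0.48, and Adora3, an adenosine receptor, 0.44 and 0.43.

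**Figure D4:**
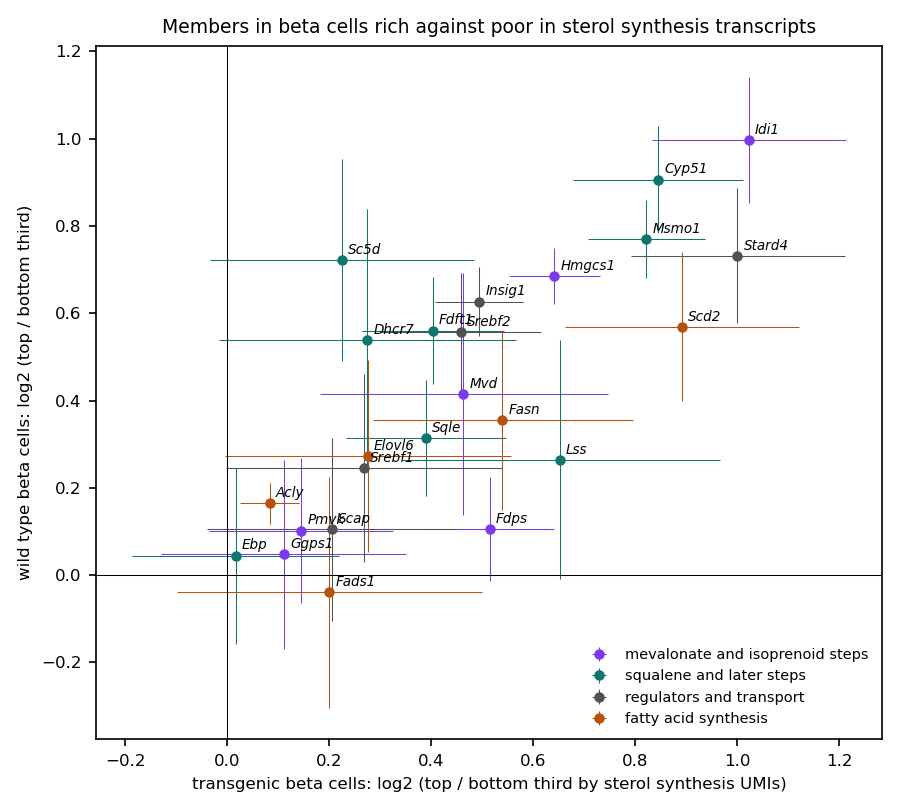
Log2 difference between the top and the bottom tercile of beta cells ordered by sterol branch UMIs, in TG (x axis) and WT (y axis), for the 24 members with at least 500 UMIs in each library, with 95% counting intervals. Idi1, Cyp51, Msmo1, Stard4 and Hmgcs1 lie at the upper right and Ebp (0.02, 0.05), Ggps1 and Acly near the origin.

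Among gene lists around the 2 pathways, the one for sterol export, storage and lysosomal release had the lowest median ratio in beta cells. There, 7 of 12 genes were at least 1.2-fold lower, against 17.3% of all genes, and 1 higher, against 16.7%, with a median log2 ratio of -0.39. Abca1, which exports cholesterol, stood at 25.5 CPM in TG and 36.0 CPM in WT (-0.50, -0.60 to -0.40) and Soat1, which esterifies it for storage, at 6.03 and 8.69 CPM (-0.53, -0.74 to -0.32). The sterol sensors diverged: Nr1h2, which encodes LXR-beta, had 24.6 CPM in TG and 32.6 CPM in WT (-0.41, -0.51 to -0.30), and Nr1h3, which encodes LXR-alpha, had 19.5 CPM in TG and 12.7 CPM in WT (0.62, 0.48 to 0.76). Of 10 other regulators and enzymes of sterol synthesis 2 were lower, a share near that of all genes, among them Erlin2, which takes part in sterol-regulated degradation (-0.40, -0.56 to -0.23).

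In the lists on fatty acid handling the directions were mixed, and apart from glycerolipid storage and NADPH supply their counts were near the shares of all genes, 17.3% lower and 16.7% higher. Among 14 other genes of synthesis and elongation 3 were lower, among them the citrate carrier Slc25a1 (-0.31, -0.39 to -0.23), which feeds Acly, and the elongation reductase Hsd17b12 (-0.27, -0.35 to -0.19), and 3 were higher, among them Tecr, the last enzyme of the elongation cycle (0.31, 0.25 to 0.37). Of 10 fatty acid oxidation genes 2 were lower, among them Cpt1a, which admits fatty acids to mitochondria (-0.32, -0.47 to -0.18), and 1 higher, Etfdh (0.32, 0.19 to 0.46). Glycerolipid storage had 5 of 10 lower and 0 higher, among them the triglyceride lipase Pnpla2 (-0.27, -0.38 to -0.16). NADPH supply divided by gene, with 2 of 7 lower and 3 higher. G6pdx (-0.50, -0.71 to -0.28) and Idh1 (-0.30, -0.46 to -0.15) were lower, as Me1 was. Idh2 (0.42, 0.36 to 0.48) and Taldo1 (0.42, 0.33 to 0.50) were among the higher. G6pdx and Taldo1 both belong to the pentose phosphate pathway, so the directions did not follow the pathway.

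Some counts may include reads of another gene. In GENCODE M21 on GRCm38, Tm7sf2 overlaps Vps51 by 532 bases and Fdps overlaps Gm43738 on the same strand, and Ggps1, Fdft1, Cyp51, Srebf1, Acss2 and Me1 overlap measured genes on the other strand. The sources used here do not say whether the counting used the strand.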

How the data were processed

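Per the labels' protocols, islets were dissociated and cells captured with version 2 of the 10x Chromium 3 prime chemistry. Per the submitters' processing notes, the authors used Cell Ranger 2.1.0, STAR 2.5.1b and mm10. The sources used here do not name the annotation release or how barcodes were selected. The authors deposited raw counts: UMIs for each gene in each cell, unnormalized.

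Cells were kept with at least 500 genes, at least 1000 UMIs and at most 10% mitochondrial UMIs, which removed 15 TG and 20 WT barcodes. Scrublet (scanpy 1.11.5) marked 17 TG and 5 WT cells by its automatic threshold, so the 165 TG and 180 WT cells with the top 4% of scores were left out instead. UMIs were summed per class and library, and the 8 sums were scaled by TMM (edgeR 4.0.16). Ratios carry exact conditional binomial 95% intervals, sums exact Poisson ones, and differences of ratios delta-method ones; the limit for a count of 0 is 3 counts. The ratio and covariation measures were tested on simulated data.

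Members, gene lists and named genes were chosen with earlier results of these data known. Named are all members, list genes with at least 500 UMIs over both libraries in beta cells and a ratio past 1.2-fold, and the 10 other genes with the highest covariation; some list genes and 3 of these 10 are not reported here. Promoters came from RefSeq (GRCm38.p6). Members under 50 UMIs in a class are given by count only there, except Scd1 and Fads2. Alternatives covered the scale, filters, thresholds, insulin share and leading genes.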

Additional observations from a re-analysis of the deposited data

Results flagged for a closer look

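Several ratios of TG over WT had opposite signs in beta cells and in another class, with both counting intervals away from 0. With 1 library per group none of these differences was tested. In alpha cells the ratios were 0.35 for Idi1 (beta cells -0.58), 0.42 for Fdft1 (-0.13), 0.22 for Sqle (-0.25), 0.42 for Msmo1 (-0.41), 0.22 for Srebf2 (-0.24) and 0.34 for Me1 (-0.65). At equal insulin share the beta cell ratio of Fdft1 was below 0 in only 1 of 5 bins. For Idi1, Sqle, Msmo1, Srebf2 and Me1 it was below 0 in 4 bins each. The alpha cell sums gave 0.22 for the sterol branch (beta cells -0.31), 0.14 for the mevalonate and isoprenoid steps (-0.36) and 0.27 for the squalene and later steps (-0.27). In delta cells the regulators and carriers together gave 0.36 (0.0006 to 0.73), from 167 UMIs in TG and 105 UMIs in WT, against -0.14 in beta cells. With DESeq2 size factors delta cell ratios shift by -0.01, so that this interval includes 0. With library totals alpha cell ratios shift by -0.03, and the intervals of Sqle, Srebf2 and Me1 then include 0.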

How the results depend on the processing

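No paired analysis was possible because each group has 1 library, and for the same reason no replicate could be left out. Over 95 ratios and 1045 recomputed values, 990 stayed within the counting interval of the value reported, 52 moved outside it and 3 changed sign although the interval of the value reported lay off 0. Of the other values, 72 changed sign where that interval included 0, 11 of them with library totals as the scale. The 3 changed sign with library totals: Fdps -0.20, Ebp -0.089 and Dhcr7 -0.062 in beta cells. On that scale the median of all genes was -0.33 in beta cells and -0.23 in gamma cells, the beta cell sums were -0.63 for sterols and -0.64 for fatty acids, and the gamma cell sterol sum was -0.69. In beta cells 26 members were then at least 1.2-fold lower. The median gene was past that fold too, so this count is not particular to the members. The totals include the hormone UMIs.

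The beta cell sterol ratio was -0.27 with hormone thresholds doubled, -0.11 averaged over 5 insulin share bins, -0.20 over the 4 bins under 70%, and -0.20 without Hmgcs1. The average over 4 bins, the sums without 1 gene and the 60 to 70% bin were chosen after seeing the data. The beta cell fatty acid ratio was -0.30 without doublet removal, -0.29 at 5% mitochondrial UMIs or less, -0.29 with thresholds doubled, -0.19 averaged over either set of bins and -0.37 without Acly. The alpha cell sterol ratio was 0.14 with cells past more than 1 threshold kept, 0.14 among cells of 15000 to 35000 UMIs and 0.13 among cells with a Y-linked and no Xist UMI; the alpha cell fatty acid ratio was 0.10 without Acly. The gamma cell sterol ratio was -0.21 with cells past more than 1 threshold kept and -0.63 among cells of 15000 to 35000 UMIs. The count of members higher in beta cells was 2 in place of 1 with DESeq2 size factors, no doublet removal, 5% mitochondrial UMIs, 15000 to 35000 UMIs, Y-linked cells, a mean over cells or no minimum, and 0 at 500 UMIs. The sterol difference by insulin share was -0.25 in TG and -0.47 in WT with the 60 to 70% bin in place of the highest. Causes were not tested. Delta and gamma cells number at most 117 per library, which limits those ratios.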
